A study of Homo sapiens with 24 samples.

Results

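Super-enhancers that run over the end of a protein-coding gene, yet hold the start of none, were described in OCI-Ly7 cells. A super-enhancer was a member of this class when it overlapped at least 1 protein-coding gene of GENCODE version 44 (hg38), did not lie wholly within a single such gene, and contained no transcription start site (TSS), taken as the 5′ end of the gene record. The rule used position and no signal. It selected 541 of the 2615 super-enhancers of the table (20.7%). The other regions fell into 304 that touched no protein-coding gene, 626 within one gene, 777 that held 1 TSS and 367 that held 2 or more.

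OCI-Ly7 was derived from a human diffuse large B-cell lymphoma and has the features of germinal center B cells. The study profiled H3K27ac, H3K4me1 and H3K4me3 by CUT&RUN, in which an antibody guides a nuclease to a chromatin mark, in 24 samples from CRISPR-edited clones of the line. There were 4 genotypes, namely unedited control (WT), CREBBP R1446C (C), KMT2D knockout (K) and both lesions (CK), with 2 samples for each mark and genotype. The signal described here is H3K27ac of the WT clones, pooled over both samples by the authors. These clones each grew from a single cell, and the labels do not say which clone gave which sample. The other 22 samples had no value in the table and were not analysed here. With 1 pooled column there is no replicate error, so each value below is a description and no test was made between classes of regions. The study states only an approximate sequencing depth per sample, and the reads pooled into this column are not given.

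H3K27ac is deposited by the acetyltransferases CREBBP and EP300 on the nucleosomes of active promoters and enhancers. Enhancers often lie in introns or downstream of genes and act on promoters at a distance through chromatin loops, so the gene under an enhancer is not always the gene it acts on. A super-enhancer is a stretch of closely spaced enhancers that together carry an unusually high signal, and in B cells such stretches are known from genes of cell identity.

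A set of 3 regions gives the sequence at the edge that lies past the gene. Each line shows the centre of the outermost constituent window, read from the + strand of hg38, for genes of the lists used for gene counts whose outer window lay outside gene bodies and held a searched motif. Capitals mark that motif. It is the E-box CAGGTG, read here as its reverse complement, in ARID1B and EP300, and the EBF-type half-site pair TCCCNNGGG in GNA13.
GNA13, chr17:64995380-64995580: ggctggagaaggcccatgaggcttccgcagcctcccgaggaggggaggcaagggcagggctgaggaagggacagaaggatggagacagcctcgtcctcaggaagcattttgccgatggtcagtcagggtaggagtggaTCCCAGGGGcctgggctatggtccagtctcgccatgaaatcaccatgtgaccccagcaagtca
ARID1B, chr6:157241013-157241213: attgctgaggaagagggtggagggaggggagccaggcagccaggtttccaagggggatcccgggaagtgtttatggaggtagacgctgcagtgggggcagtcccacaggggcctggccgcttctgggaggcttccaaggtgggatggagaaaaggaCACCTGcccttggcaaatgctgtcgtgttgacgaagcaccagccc
EP300, chr22:41181406-41181606: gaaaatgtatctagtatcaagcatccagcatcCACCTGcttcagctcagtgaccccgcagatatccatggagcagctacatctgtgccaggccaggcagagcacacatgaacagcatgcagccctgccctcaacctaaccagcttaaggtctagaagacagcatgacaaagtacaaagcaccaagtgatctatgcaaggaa
In the printed GNA13 sequence 21 of 171 31-mers (12.3%) had a further exact copy on chromosomes 1 to 22, X and Y, with at most 2 copies. Reads from such sequence are harder to place uniquely, and the part of this in the signal was not tested. No 31-mer of the printed ARID1B and EP300 sequences was repeated. The rest of each window was not searched for repeats.

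The rule leaves only 2 shapes. In 340 members (62.8%) one edge lay inside a gene and the other in the intergenic space beyond its 3′ end. In the remaining 37.2% both edges lay in genes whose ends faced each other. A single gene end was crossed in 334 members, 2 ends in 196 and 3 ends in 10. The exception was a region at the protocadherin gamma cluster, whose many overlapping genes of neuronal adhesion proteins share their last exons, where 23 gene records ended. Together 779 genes had their end crossed, 3.90% of all 19970 protein-coding genes, and in 766 of them the end of the canonical transcript was inside too. The crossed genes had a median length of 74.8 kb, against 27.5 kb for all protein-coding genes. The rule itself favours long genes, since each crossed gene must have its start outside the region. Each protocadherin gamma record was counted singly.

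Members with 1 edge in a gene reached a median of 14.8 kb past the gene end, with quartiles of 6.28 and 28.4 kb and a range from 0.139 to 177 kb. Inside the gene they covered a median of 43.8 kb. Most therefore lay mainly in the gene, and 90 of 340 (26.5%) had more length past the end than inside. A reach of at least 10 kb was seen in 224 (65.9%), of at least 50 kb in 36 (10.6%) and of at least 100 kb in 7. Longer stretches inside went with shorter stretches outside, with a Spearman's rho of -0.330 over 340 regions of 1 table. Downstream, the next gene turned its start toward the region in 214 of 339 cases (63.1%) and its end in 125. The selection bears on this share, and no share over all genes was taken. A region that reached the next gene's end counts in the other shape, and one that reached its start is no member. The far edge stopped a median of 28.1 kb short of the next gene.

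**Figure D1:**
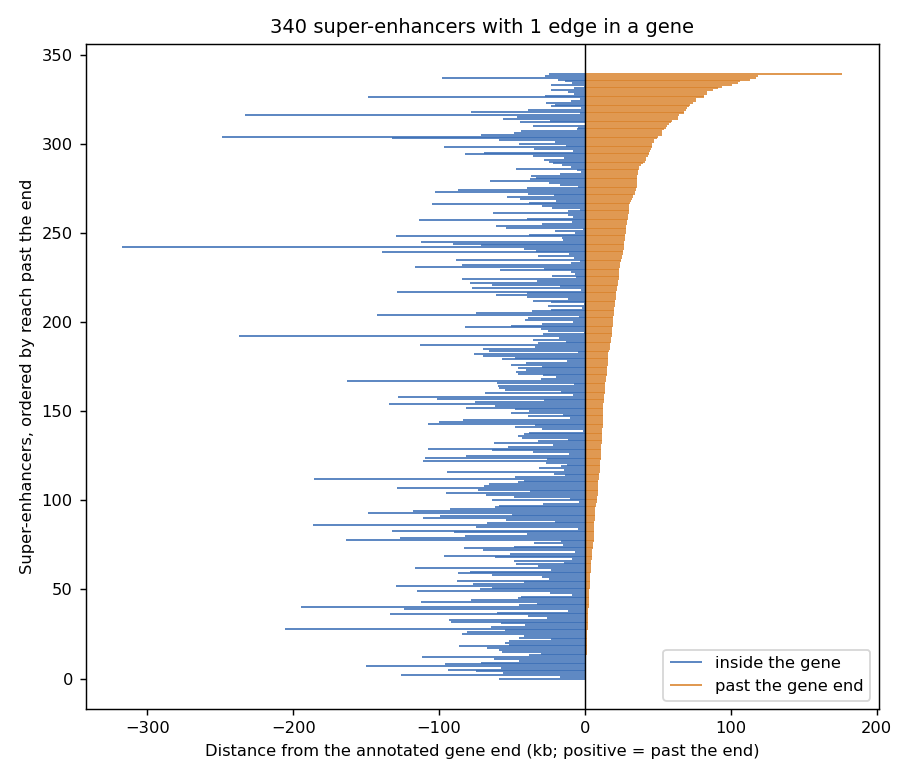
Extent of the 340 members with 1 edge in a gene, 1 horizontal line per region ordered by reach, in kb from the annotated gene end, with the stretch inside the gene to the left of 0 and the stretch past the end to the right. The median is 43.8 kb inside and 14.8 kb past the end, and 90 lines are longer on the right than on the left.

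Where both edges lay in genes, the gene bodies met or overlapped in 64 members (31.8% of this shape), which were then wholly covered by genes. In the other 137 a gap remained between the ends. Over this shape the median distance between the ends was 1.64 kb and the widest gap was 60.7 kb. Both shapes had similar median signals (19732 with 1 edge and 19205 with both), although regions with both edges in genes were longer (74.3 against 65.9 kb) and had a lower signal per bp (0.261 against 0.319).

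The H3K27ac signal of the members differed little from that of the table. ROSE, the program that made the table, joins nearby peaks, gives 1 signal for each stitched region and keeps regions above a cutoff. The cutoff here was 10617, in units the header does not name. Constituent peaks covered a median of 11.2% of the length of a region over the table. Members ranged from 10646 to 170185 with a median of 19538 and quartiles of 13817 and 30188. The median over all regions was 19736, and the other 4 classes lay between 19140 and 20902. Members took 20.8% of the summed signal with 20.7% of the regions. Ranks 1 to 250 held 51 members, which is 9.43% of members against 9.56% of the table. A signal of at least 2 times the cutoff was reached by 237 members (43.8%) against 44.7% of all regions. At the very top the numbers are small, with members holding 5 of the first 10 ranks, 13 of the first 50 and 25 of the first 100.

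Length and density set the members apart more than signal did. The position rule itself bears on length, since members must run over a gene end and regions within one gene must fit in it. The median member was 69.9 kb long, with quartiles of 48.9 and 98.3 kb, against 60.7 kb over the table and 46.9 to 62.1 kb in the other classes. It held 20 constituent peaks, against 16 over the table, and 486 members (89.8%) held 10 or more, compared with 78.6% of all regions. Signal per bp had a median of 0.294, the lowest of the 5 classes, with quartiles of 0.217 and 0.433. The medians were 0.452 without a gene, 0.356 within one gene, 0.343 with 1 TSS and 0.331 with 2 or more. The interquartile ranges of all 5 classes overlapped. By density, 33 members were among the first 250 regions (6.1% of members against 9.56% of the table). By length, 57 were among the 250 longest (10.5% against 9.56%).

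**Figure D2:**
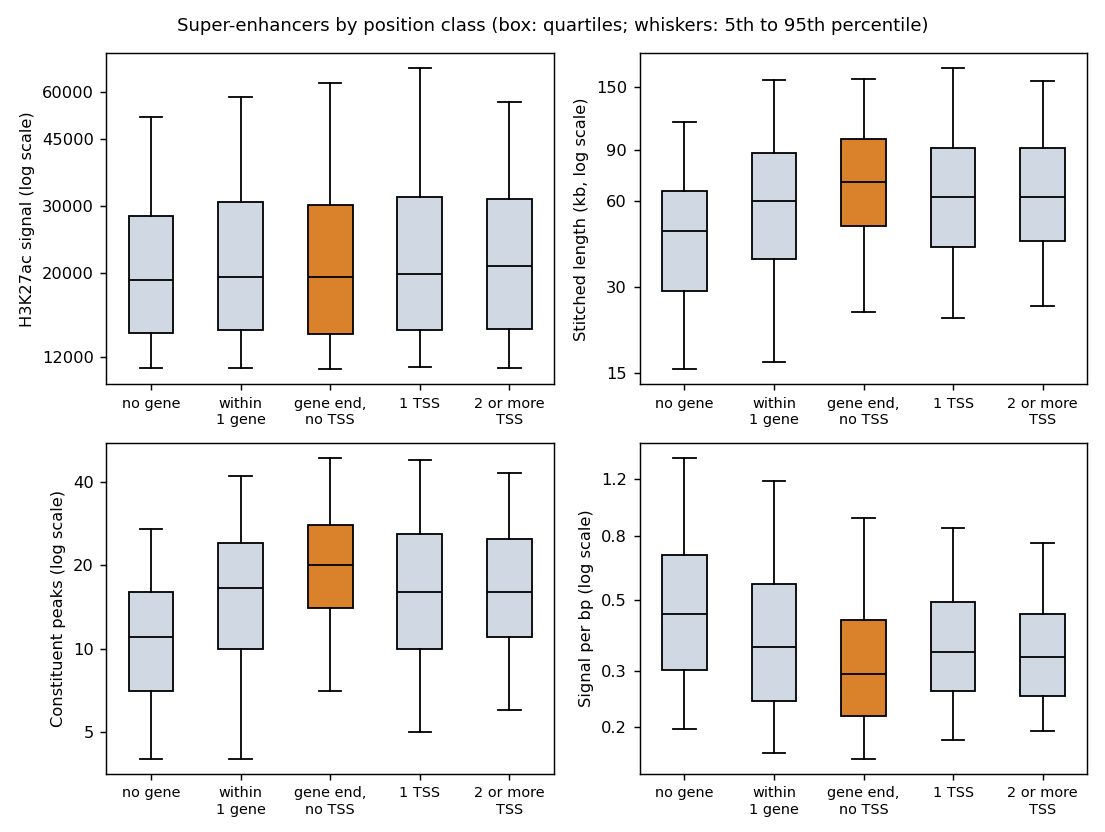
Signal, stitched length in kb, number of constituent peaks and signal per bp, on log axes, for the 5 position classes of super-enhancers, with boxes from the lower to the upper quartile, lines at the medians, whiskers from the 5th to the 95th percentile and the members in orange. The median signal of the members (19538) lies within the range of the other medians, while their median length of 69.9 kb is the longest and their median signal per bp of 0.294 the lowest.

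A long region can hold any given feature more often. Signal per bp fell with length in the members (rho -0.423, all members) as in the table (rho -0.538, n = 2615). Part of this fall is built in, since length is the divisor of signal per bp and only regions above the signal cutoff are kept. The densities were therefore also read within classes of length, a comparison chosen after the data were seen. Among regions of 30 to 60 kb the median signal per bp was 0.332 in 173 members and between 0.351 and 0.391 in the other classes. From 60 to 90 kb it was 0.241 in 154 members, next to 0.243 in regions within one gene and 0.290 to 0.309 elsewhere. From 90 to 120 kb it was 0.244 in 92 members and 0.264 to 0.311 in the rest. The members' median was the lowest in each of these 3 length classes although in the middle one it differed little from regions within one gene.

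**Figure D3:**
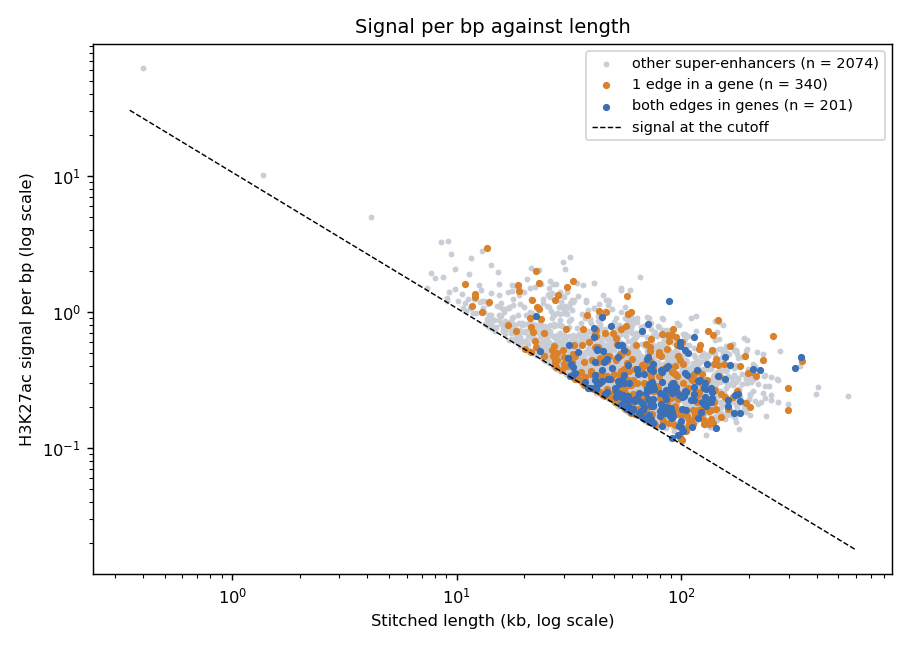
Signal per bp against stitched length in kb, both on log axes, with 1 point per super-enhancer, members with 1 edge in a gene in orange, those with both edges in genes in blue and the other 2074 in grey, and a dashed line where the signal equals the cutoff of 10617. No point lies below the line, since only regions above the cutoff are kept. Signal per bp falls with length in members and table (rho -0.423 and -0.538), in part because length is its divisor.

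In sequence, the members consisted of 69.6% intron, 9.98% exon and 20.4% bases outside protein-coding genes. The table as a whole had 67.3%, 8.11% and 24.6%. GC content had a median of 46.4% in members, 45.7% over all regions and 43.0% in regions within one gene. The nearest other super-enhancer was a median of 67.3 kb away, and 237 members (43.8%) had one within 50 kb, against 45.2% of the table.

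Since no member holds a TSS, the next question was how far the closest one lay and whether it belonged to the gene under the region. ROSE left out peaks within 2500 bp of a TSS, so such distances do not tell whether H3K27ac was present at the starts. The nearest TSS was a median of 8.96 kb from the edge, with quartiles of 4.46 and 28.6 kb and a range from 0.712 to 329 kb. It lay within 2.5 kb in 25 members, from 2.5 to 5 kb in 128, from 5 to 10 kb in 137, from 10 to 50 kb in 179 and beyond 50 kb in 72. The start belonged to a crossed gene in 392 members (72.5%) and to another gene in 149 (27.5%). This share rests on gene records, and with the starts of every transcript of protein-coding genes another gene was nearest in 4.62% of members. By construction that count puts the 429 members with such a start inside, always of a crossed gene, with the crossed genes. By gene records, the share with another gene nearest was 37.6% for members with 1 edge in a gene and 10.4% for those with both. Among the 128 members with 1 edge in a gene whose nearest start was of another gene, 107 had the start of the next gene downstream as the nearest.

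In the 149 members with another gene nearest, that start was a median of 13.9 kb away and the closest start of a crossed gene 49.98 kb. UBE2E2, for a ubiquitin-conjugating enzyme, shows such a case. Its region at chr3:23567205-23768370 (rank 381, signal 39851) held the last 24.6 kb of the gene and reached 177 kb past it, the furthest of all members, and stopped 37.6 kb short of the start of UBE2E1. At IQGAP1, a scaffold of the actin cytoskeleton, the start of CRTC3 lay 8.85 kb from the far edge.

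**Figure D4:**
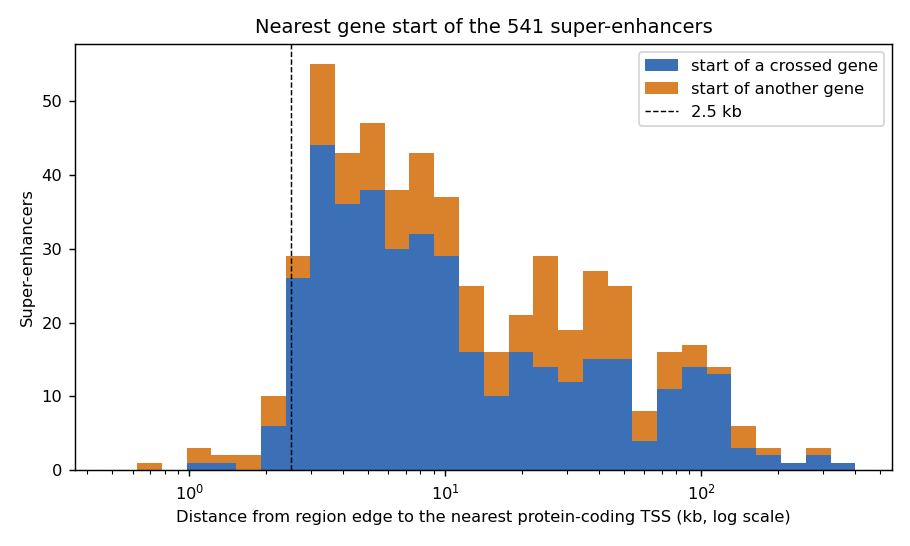
Stacked histogram of the distance in kb, on a log axis, from the edge of each member to the nearest TSS of a protein-coding gene, in blue where that gene is a crossed gene and in orange where it is another, with a dashed line at 2.5 kb. The 392 members nearest a crossed gene and the 149 nearest another gene both spread from about 1 kb to over 300 kb.

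The absence of a TSS holds for gene records and not for every transcript. A start of any transcript of a protein-coding gene was inside 429 members (79.3%, against 77.1% of all regions). A start of a coding transcript was inside 260 (48.1% against 65.1%), and the start of the canonical transcript inside 28 (5.18%). The shares over all regions include those with a TSS, of which 98.7% (1 TSS) and 100% (2 or more) held a coding start. In regions within one gene, which also hold no TSS, 70.8% held any transcript start and 49.2% a coding one. Starts of non-coding genes were inside 358 (66.2% against 62.2%). The deposited constituent lengths bear on this, since nearly all constituents are windows of 1 fixed width, yet in 125 members (23.1%, against 50.1% of all regions) the summed length exceeded the number of constituents times that window. The share was 87.0% in regions with 1 TSS, 95.4% with 2 or more, 18.4% within one gene and 14.5% without a gene. Among members it was 87 of 260 (33.5%) with a coding transcript start and 38 of 281 (13.5%) without. What the added windows are was not tested.

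The 112 members with no transcript start at all were shorter than the class as a whole. Their median length was 52.9 kb, with 15 constituents, a signal of 17154 and a signal per bp of 0.371. Regions within one gene without a transcript start (n = 183) had medians of 48.4 kb, 12 constituents and 0.433, and regions without a gene had 46.9 kb, 11 constituents and 0.452. The order of these 3 sets in length, constituents and signal per bp was thus the same as among the full classes, while the full class's higher length than TSS-bearing regions did not carry over to these 112.

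The member with the highest signal was also rank 1 of the table. It covered 237 kb of KANK1, a regulator of actin and cell adhesion, and 18.4 kb past its end (chr9:508972-764466, signal 170185, 64 constituents). Rank 2 joined the ends of AKAP13, an anchoring protein for protein kinase A, and KLHL25 at chr15:85421479-85763657, with a signal of 158292 over 342 kb. Rank 4 covered 318 kb of SNX29, a sorting nexin, with a signal of 149740, and at 344 kb was the longest member. Rank 10 ran over ZMYND11, a reader of methylated H3.3, and DIP2C with a signal of 123595 over 321 kb.

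In 2 of the 10 strongest members the gene held little of the region. At TEX35, a testis-expressed gene (chr1:178521295-178667435, rank 8, signal 126996), 119 kb lay past the gene end and 81.3% of bases were outside genes. At SC5D, an enzyme of cholesterol synthesis (chr11:121295235-121426330, rank 28, signal 95044), 113 kb lay past the end and 86.1% of bases were outside genes. Downstream of TEX35 the region faced the start of RALGPS2 at 57.7 kb, and downstream of SC5D that of SORL1 at 26.0 kb. LRRK1 (rank 23, signal 101446) reached 81.3 kb past its end. The protocadherin gamma and DIAPH1 region (chr5:141497897-141585742, rank 20, signal 104632) was the most compact of the 10 at 87.8 kb and had the highest signal per bp of them, 1.19.

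The last of the 10 lay at signalling genes. PTPRJ encodes a receptor tyrosine phosphatase that acts on Src-family kinases, and its region (chr11:48038699-48177085, rank 29, signal 93189) reached 6.25 kb past the end. NFATC2 is a transcription factor driven by calcium and calcineurin downstream of antigen receptors. Its region (chr20:51360904-51526167, rank 30) covered 139 kb of the gene and 26.1 kb beyond it. At these 2 genes another super-enhancer covered part of the same gene.

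Gene lists for the biology of these cells were then read for genes whose end was crossed. Of 99 genes in 6 lists, 55 were overlapped by some super-enhancer of the table and 14 had their end crossed by a member, against 17.3% and 3.90% of all protein-coding genes. The lists hold genes known to be active in B cells and gene length was not matched, so nothing particular to the lists is read from these shares. B-cell identity had 10 of 16 genes overlapped and 3 crossed (IKZF1, PAX5, BLNK). Germinal center fate had 6 of 16 overlapped and 3 crossed (BACH2, FOXO1, GNA13). Immune synapse genes had 9 of 20 overlapped and only IL21R crossed. B-cell receptor signalling had 12 of 16 overlapped and 2 crossed (LYN, VAV1), and NF-kB signalling 5 of 15 overlapped and 1 crossed (TRAF1). Chromatin regulators had 13 of 16 overlapped and 4 crossed (EP300, KMT2C, EZH2, ARID1B). In a list of 20 genes of other tissues 1 (MBP) was overlapped and none crossed.

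In 4 of the 14, most of the gene was covered but the start of its gene record was not. Transcript starts of protein-coding genes did lie inside these regions, 7 at VAV1, 4 at IKZF1, 11 at EP300 and 7 at EZH2 with CUL1. Of these starts 2, 1, 1 and 0 were of coding transcripts. Because ROSE left out peaks within 2500 bp of a TSS, an uncovered start does not mean that H3K27ac was absent there. VAV1, a guanine nucleotide exchange factor of antigen receptor signalling, was covered over 97.1% (chr19:6775165-6863557, rank 194, signal 54237), from 2.46 kb after its start. IKZF1, the lymphoid zinc-finger factor Ikaros, was covered over 82.5% (chr7:50321721-50417238, rank 195, signal 54187). These 2 were the strongest of the list members.

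EP300 and EZH2 were covered to a like extent at a far lower signal. EP300, itself a depositor of H3K27ac, was covered over 92.7% (chr22:41098989-41181706, rank 1716) with a signal of 15824 and a signal per bp of 0.191. EZH2, the methyltransferase that places the opposing H3K27 methylation, was covered over 85.9% in a region shared with CUL1, a scaffold of ubiquitin ligases (chr7:148761894-148873440, rank 1714, signal 15840). Its signal per bp of 0.142 was the lowest of the 14 list members. For comparison, signal per bp was 0.614 at VAV1 and 0.567 at IKZF1.

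At 7 further genes under 25% of the gene, from its 3′ end, was covered. FOXO1, a forkhead factor of germinal center B cells, had 2.79% of its length inside, and 67.9 kb of its region lay downstream (chr13:40487806-40558758, rank 1859, signal 14666). PAX5, the factor that holds B-cell identity, had 13.8% inside (chr9:36820039-36861024, rank 2483, signal 11201). GNA13, the G protein that confines germinal center B cells, had 16.1% inside, at a signal per bp of 1.22 over only 21.6 kb (chr17:64995280-65016907, rank 854, signal 26487). KMT2C, an H3K4 methyltransferase of enhancers, had 16.2% inside in a region shared with the glycosyltransferase GALNT11 (rank 1911). The Src-family kinase LYN had 17.2% (rank 1376), the plasma cell repressor BACH2 22.4% (rank 1724) and ARID1B, a subunit of the BAF remodeller, 24.1% (rank 1128).

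At 6 of these 7 genes a separate super-enhancer covered another stretch of the same gene, GNA13 being the exception, and in 5 of the 6 that other region had the higher signal. At ARID1B the other region was rank 6 of the table (signal 135630), held the gene's start and lay 15.1 kb from the member. At BACH2 it was rank 66 (signal 75398), 51.7 kb away, and at PAX5 rank 216 (signal 51672), 14.2 kb away. At LYN it was rank 320 and at KMT2C rank 1223. At FOXO1 the order turned, with 14381 in the other region (rank 1903) and 14666 in the member. Over all members, 117 (21.6%) had another super-enhancer over a crossed gene and 56 (10.4%) had one over its start.

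**Figure D5:**
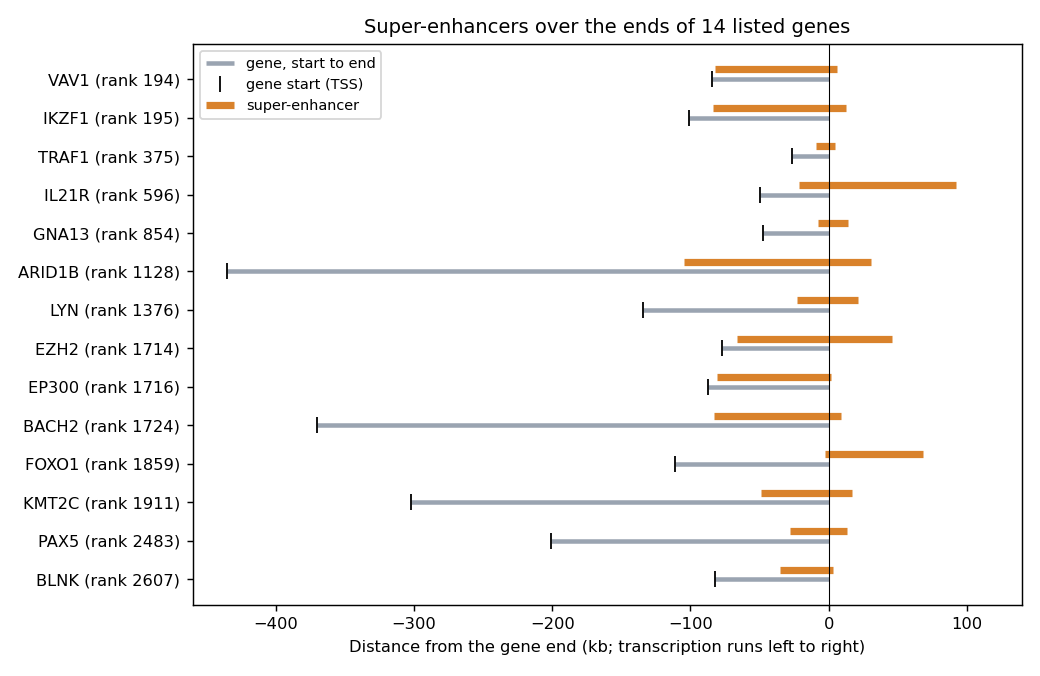
The 14 list genes (grey, start marked by a tick) and the members over their ends (orange), drawn to 1 scale in kb from the gene end, with transcription from left to right and the rank of the member beside the gene. The members over VAV1, EP300, EZH2 and IKZF1 span over 80% of the gene, while those over FOXO1, PAX5 and GNA13 span under 20% at its end.

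The last 3 list genes lay between these patterns. TRAF1, an adaptor of TNF receptors and a target of NF-kB, had 33.8% of its length in a region of 13.7 kb with 3 constituents (chr9:120897755-120911439, rank 375, signal 40194). Its signal per bp of 2.94 was the highest of all members, and the nearest start, 2.86 kb away, was that of PHF19. IL21R, the receptor for the helper T-cell cytokine interleukin 21, had 43.1% inside a region that went on 92.2 kb past its end over GTF3C1, a subunit of transcription factor TFIIIC (chr16:27430569-27544227, rank 596, signal 31961). The nearest start to it was that of GTF3C1 at 5.69 kb. BLNK, the linker of the B-cell receptor pathway, had 42.8% inside a region shared with ZNF518A (chr10:96185988-96224408), which at 10646 and rank 2607 had the lowest signal of all members. Another super-enhancer over BLNK, rank 2335, was 19.99 kb away.

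All members were also grouped by the share of the best-covered gene. Region length, distance to a TSS and the share outside genes are tied to this grouping by geometry. Signal per bp fell with length in the members, and the groups were not matched in length. In 230 members at least 80% of a gene was covered, and these had a median signal of 21846, a length of 81.3 kb and a signal per bp of 0.260, with the nearest TSS 4.63 kb away. In 253 members with 20% to under 80%, the medians were 18024, 65.5 kb and 0.311. In 58 members under 20%, they were 18452, 46.2 kb and 0.366, with 56.3% of bases outside genes. A signal of at least 2 times the cutoff was found in 119 of 230 (51.7%), 96 of 253 (37.9%) and 22 of 58 (37.9%). Across all members, signal showed next to no relation to the share of bases outside genes (rho -0.016), and signal per bp a weak one (rho 0.226).

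The extremes of density spanned a wide range. After TRAF1, the highest signal per bp was 2.01 at FRMD8 (rank 292, 22.6 kb) and 1.69 at FMOD, a small proteoglycan (rank 176, 32.9 kb). The lowest were 0.115 at IQGAP1 (rank 2414), which was also the lowest of the whole table, 0.116 at PRKCI, an atypical protein kinase C (rank 2424), and 0.118 at ATP1B3 with the cell cycle factor TFDP2 (rank 2593). The shortest members were 10.9 kb at PLEKHO1, 11.8 kb at ALDH3B2 and 12.0 kb at NFKBIL1. PARN, a poly(A)-specific ribonuclease (rank 79), reached 117 kb past its end. Besides the protocadherin region, 3 ends met at LHPP with FAM53B (rank 72) and at GTPBP1 with SUN2 and DNAL4 (rank 663).

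Both sides of the 340 members with 1 edge in a gene were compared at their outermost constituent window. On the gene side 88.2% of windows were centred in introns, and on the far side 99.4% were outside genes. GC content had a median of 48.4% on the gene side, 51.8% on the far side and 49.4% over the 5229 outer windows of the table. Short motifs of B-cell transcription factors (11 in all) were searched on both strands. The ETS-IRF composite GGAANNGAA was in 6.76% of gene-side and 9.71% of far-side windows, against 10.1% over all outer windows. The NF-kB motif GGGNNTTTC was in 4.12% and 7.35% (6.02% overall) and the AP-1 motif TGANTCA in 10.3% and 14.4% (11.6%). The PU.1 motif GAGGAAGT was in 5% and 2.94% (3.35%), or 17 and 10 windows. The octamer ATGCAAAT was in 2.65% and 0.882% (2.43%), or 9 and 3 windows. Members with both edges in genes had 402 outer windows, 86.6% of them centred in introns. Their shares were 11.7% for ETS-IRF, 5.22% for NF-kB, 12.2% for AP-1, 3.23% for PU.1 and 2.49% for the octamer. The low gene-side share of ETS-IRF was thus not shared by these windows.

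The other 6 motifs were read on the gene side and the far side. CAGCTG was in 25.6% and 28.8% of windows (24.9% overall), CAGGTG in 39.1% and 45.3% (42.5%), and the EBF pair TCCCNNGGG in 7.06% and 9.71% (8.59%). The RUNX motif TGTGGTTT was in 2.94% and 3.53% (3.23%), the BCL6-STAT pair TTCCNNGAA in 4.41% and 5.29% (4.76%), and the MEF2 motif CTATTTATA in 0.588% and 0% (0.306%). The GGAA core is shared by the PU.1 and ETS-IRF letters, so these 2 can overlap. A match describes letters in a window and no binding. Counting a member once if either outer window held the motif, the shares stayed near those of all regions, for example 17.6% against 19.1% for ETS-IRF, 10.9% against 11.9% for NF-kB and 45.3% against 43.7% for CAGCTG.

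The rule has a sharp edge at the TSS. The members closest to one were at VDR (signal 25766), where the start of HDAC7 was 0.712 kb away, and at CPEB4 (signal 28987), where that of C5orf47 was 1.01 kb away. Regions left out because they held a TSS just inside their edge were those at ZFP90 (0.021 kb inside, signal 12076), CPT1A (0.037 kb, signal 12268) and MOB2 (0.059 kb, signal 15059).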

How the data were processed

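CUT&RUN for H3K27ac was made in 2 WT samples of OCI-Ly7. By the methods of the study, the authors aligned to hg38 in nf-core cutandrun 2.0, used an IgG control for each genotype and normalized depth by promoter reads. SEACR gave peaks, MACS2 gave summits, and ROSE left out peaks within 2500 bp of a TSS of any gene other than non-coding RNA. The deposited signal is the ROSE signal per stitched region (stitching distance 12500 bp) of 1 pooled column. Its unit and the number of reads pooled into it are not given in the sources used here, so it was used as a relative value. For single samples the methods of the study state only an approximate sequencing depth. The submitters' processing notes also list DiffBind 3.6.1, whose output was not used here.

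All 2615 regions lay above the cutoff. Genes were the 19970 protein-coding records of GENCODE version 44 for chromosomes 1 to 22 and X. Density, the signal per bp, was signal divided by end minus start. Constituents were windows of 401 bp (their length summed to exact multiples of 401 in 2609 regions). Outer windows were the outermost 401 bp, of which the central 201 bp are printed, and relations are Spearman's rho without p. Regions named were the 10 members with the highest signal, the 3 highest and 3 lowest by signal per bp, the 3 longest and shortest, the 3 with most ends, the 3 reaching furthest, and each member at a listed gene. UTRs were left out of printed sequences. Some members and windows that met these rules are not reported here. The members, gene lists and motifs were chosen with earlier results of these data known. Scripts used Python 3.11.15, numpy 2.4.6, pandas 2.3.3, scipy 1.17.1, pysam 0.24.0, samtools 1.23.1 and matplotlib 3.10.9, and were tested on simulated regions. Alternatives changed the start definition, signal range, annotation, chromosome set, distance and window.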

Additional observations from a re-analysis of the deposited data

How the results depend on the processing

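Of 66 alternative values over 21 results, 36 stayed within their limit and 30 moved past it. The limit was the 95% interval over regions, or a fixed fold change for the member count. Only rho of signal and length could have changed sign, and it did not. The interval treats regions as independent, which they are not. Settings that leave out members were run for the 10 results other than the motif shares. Leaving out members within 2500 bp of a gene start, readthrough genes or chromosome 22 moved none of these 10 past its limit. Measuring from the midpoint did not move the share with another gene nearest, the 1 result it was run for. Leaving out members that hold any transcript start moved all 10. The count fell to 112, the median signal was 17154, length 52.9 kb, signal per bp 0.371, constituents 15, share outside genes 54.4% (12.0% in all members), GC 44.8%, the share with another gene nearest 33.0%, the share crossing 2 or more ends 8.93% (38.3% in all) and rho of signal and length 0.358 (0.533 in all). Above the median signal of the table there were 264 members, signal 30667, 92.3 kb, 0.371 per bp, 26 constituents and rho 0.387. Dividing the signal by constituent length gave 2.43. Genes of every biotype gave 8.40% outside genes. Starts of every transcript gave 4.62% with another gene nearest. Outer windows alone gave a GC of 49.9%. In the centre of outer windows the share of members with a motif was 2.96% for PU.1 (7.39% in whole windows), 10.2% for ETS-IRF (17.6%), 2.22% for the octamer (4.07%), 28.1% for CAGCTG (45.3%), 41.8% for CAGGTG (64.7%), 6.10% for NF-kB (10.9%), 2.22% for RUNX (5.91%), 11.5% for EBF (17.6%), 2.96% for BCL6-STAT (8.69%) and 12.6% for AP-1 (23.3%), since fewer bases were searched. No paired analysis was possible because the table gives 1 pooled column, and leaving out a replicate was not run for the same reason. The reads pooled into the column are not given, and no value has a replicate error.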

Other observations

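Members made up 20.7% of the super-enhancers of the table, and their share varied between chromosomes. It was highest on chromosomes 7 (32 of 121, 26.4%), 9 (29 of 110, 26.4%) and 20 (25 of 95, 26.3%). Among autosomes it was lowest on chromosomes 14 (15 of 100, 15%) and 19 (13 of 86, 15.1%). None of the 22 super-enhancers on chromosome X was a member. The numbers per chromosome are small and no test was made, so no uneven spread is read from them.

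The members held 31 microRNA hairpins of the RefSeq annotation, in 31 regions. Among them were MIR33A, a regulator of cholesterol export, in the region over SREBF2 and SHISA8 (rank 247), MIRLET7G of the let-7 family at PPM1M and WDR82 (rank 1545), MIR185 at TANGO2 (rank 2050), and MIR4475 at PAX5 (rank 2483). In the strongest members MIR3161 lay at PTPRJ (rank 29) and MIR3194 at NFATC2 (rank 30). The table gives H3K27ac signal over the region and no level of these RNAs. Hairpins in the other super-enhancers were not counted, so nothing particular to the members is read from the number 31.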
